A study of Mus musculus with 3 samples.

Results

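Regulatory T cells were sought among splenic CD4+ T cells that had not been stimulated, by the transcript of their lineage factor Foxp3. The cells were chosen by 1 gene: a barcode of the unstimulated WT library with more than 200 detected genes, less than 15% of its counts from mitochondrial (mt-) genes and at least 1500 unique molecular identifiers (UMIs, each 1 counted RNA molecule) was a member if it held 1 or more Foxp3 UMIs. Of 7206 cells that passed the filter, 322 (4.47%, exact 95% interval 4.0 to 4.97%) were Foxp3-positive, and the other 6884 cells of the same library, with 0 Foxp3 UMIs, were the comparison group. Over the 3 libraries of the series, 30449 cells passed the same filter.

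The 3 single-cell RNA libraries came from spleens of C57BL/6 mice, male and 5 to 10 weeks old. The unstimulated WT library held CD4+ T cells of Ift20 f/f mice, which carry the floxed Ift20 gene without Cre, kept in DPBS. The stimulated WT library held cells of the same genotype after 24 h with antibodies to CD3 and to CD28, each at 1 μg/mL. The stimulated IFT20-KO library held equally treated cells of Ift20 f/f CD4 cre mice, in which a Cd4 promoter drives Cre, so that Ift20 (a subunit of intraflagellar transport) is deleted in all T cells that have expressed Cd4. Before the sort of 7AAD-negative, CD3+CD4+ cells, splenocytes had been enriched magnetically for naïve (CD44lo) CD4+ T cells, so the shares given here are shares of an enriched fraction and not of the spleen. Each condition was 1 library, no replicate was available, and no test was made: intervals are exact 95% intervals of the counts and cover counting error only. A difference between groups of cells was called when it passed 2-fold.

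Regulatory T cells restrain other lymphocytes and prevent autoimmunity. Foxp3 holds their program in place: it acts with partners such as Runx1 and the Ikaros family member Helios (Ikzf2), keeps Il2 silent and raises Il2ra and Ctla4. The cells therefore live on IL-2 made by others, which they bind through a receptor of 3 chains, Il2ra, Il2rb and Il2rg, that signals through Jak1 and Jak3 to STAT5. They suppress by taking up IL-2, by stripping costimulatory ligands with Ctla4, by making adenosine through Entpd1 and Nt5e, and by releasing TGF-β held on the surface by the Lrrc32 protein.

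The depth of the 2 groups was close. Foxp3-positive cells had a median of 4713 UMIs (quartiles 3613 and 6070) and 1744.5 genes per cell, and Foxp3-negative cells had 4803 UMIs (3997.5 and 5682) and 1710 genes. The median mitochondrial share was 2.23% in members and 2.27% in the rest. With every cell thinned to 1500 UMIs, the median number of genes was 757 in members and 741 in the rest, close in both groups. In all, members held 1649808 UMIs and the comparison cells 34668726, and levels are given as CPM, the summed UMIs of a gene in a group scaled to a fixed group total of 1000000.

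Foxp3 itself, at chrX:7573644-7595245 on the plus strand (GRCm38), was present in members by construction, at 705 UMIs or 427 CPM, and its level is only a description. Of the members, 160 held 1 Foxp3 UMI, 65 held 2, and 97 held 3 or more, up to 9 UMIs in 2 cells. Members just inside the threshold, with 1 UMI, made up 49.7% of the group, and thinning every cell to 1500 UMIs left a Foxp3 UMI in 148 cells (2.05%). Some of the 6884 cells just outside the threshold may hold Foxp3 RNA that was not caught, so Foxp3-negative here means that no Foxp3 UMI was seen. The 250 bases before a RefSeq start of Foxp3, chrX:7580233-7580482 (GRCm38.p6, plus strand), are shown because they hold a STAT motif, TTCNNNGAA, in capitals, 139 bases before that start. The window before the other RefSeq start of Foxp3, chrX:7579426-7579675, held no match to this motif.

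Foxp3: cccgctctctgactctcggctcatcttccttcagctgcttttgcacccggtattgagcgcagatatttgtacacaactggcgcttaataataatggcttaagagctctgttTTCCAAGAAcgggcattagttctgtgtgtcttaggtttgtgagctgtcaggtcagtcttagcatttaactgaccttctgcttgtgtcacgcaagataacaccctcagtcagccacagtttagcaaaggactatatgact

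The label was set beside 5 further markers of regulatory T cells, none of which chose the cells. The 5 were listed with earlier results of these data known, so their levels are a description and not an independent check. All 5 were far higher in members, with a median log2 ratio of 4.24 over the list beside 0.04 over all 7083 genes measured, meaning those with at least 10 CPM over both groups together. Of the 5, Ikzf2 and Il2rb were among the 7083. Ctla4 (8.10 CPM over both groups), Nrp1 (6.31 CPM) and Lrrc32 (3.91 CPM) were below that level and are not in the counts of the 7083. Of all 4598 genes below that level with a ratio, 1450 (31.5%) were past 2-fold higher. Of these 7083 genes, 67 (0.946%) were past 2-fold higher and 51 (0.72%) past 2-fold lower in members, and the 5th and 95th percentiles of the log2 ratio were -0.47 and 0.54. Ikzf2, the transcription factor Helios of thymus-derived regulatory T cells, stood at 147 CPM (129 to 167) in members and 5.65 CPM in the rest, a log2 ratio of 4.70 (4.43 to 4.98). Ctla4, the inhibitory receptor that competes with CD28 for its ligands, had 84.3 CPM in members against 4.47 CPM, or a log2 ratio of 4.24 (3.90 to 4.58). Il2rb, the signalling β chain of the IL-2 and IL-15 receptors, stood at 241 CPM against 14 CPM, with a log2 ratio of 4.11 (3.91 to 4.30). These 3 genes were more than 10-fold apart between the groups, and none of their counting intervals overlapped. Lrrc32, the protein GARP that presents latent TGF-β, was the farthest of the 5, with 59.4 CPM against 1.27 CPM and a log2 ratio of 5.55 (5.02 to 6.10). Nrp1, a semaphorin co-receptor more abundant on thymus-derived than on induced regulatory T cells, had 61.8 CPM against 3.66 CPM, or a log2 ratio of 4.08 (3.69 to 4.46). The plot of levels by gene shows these markers beside genes of the sections that follow.

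**Figure D1:**
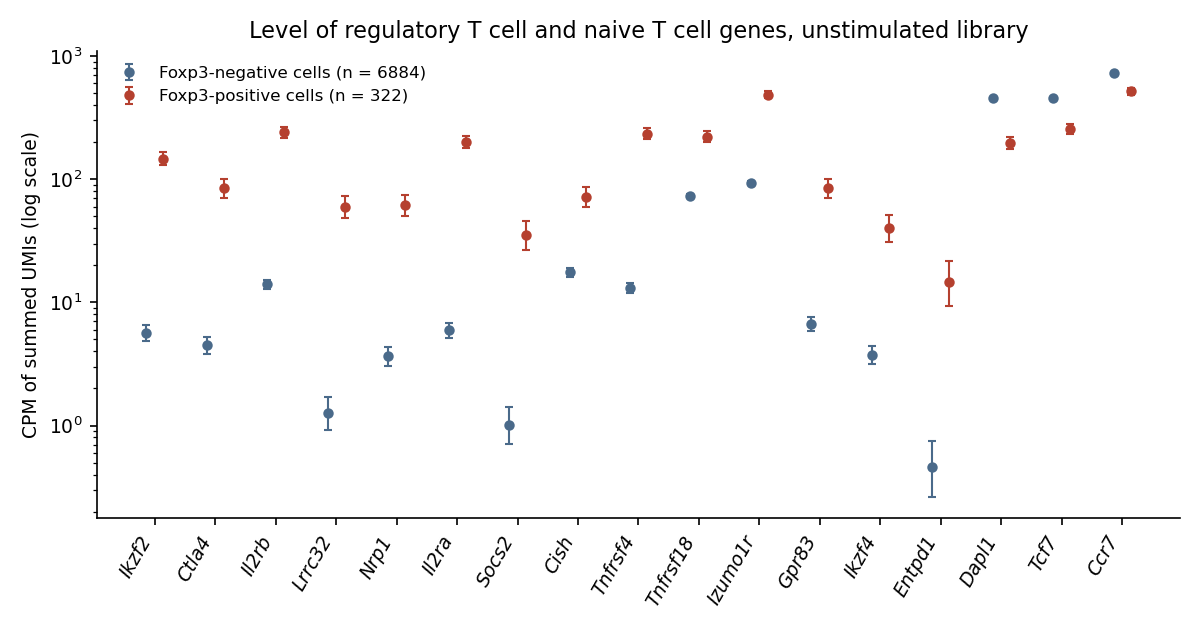
Level of 17 genes in Foxp3-positive (red, 322 cells) and Foxp3-negative (blue, 6884 cells) cells of the unstimulated library, as CPM of summed UMIs on a log axis, with exact 95% Poisson intervals of the counts. The markers from Ikzf2 to Entpd1 lie higher in Foxp3-positive cells, and Dapl1, Tcf7 and Ccr7 lower.

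The share of cells with a UMI was also higher in members for each of the 5 markers. Il2rb was detected in 46.0% of members against 4.50% of the rest, Ikzf2 in 36.6% against 1.64%, Ctla4 in 27.0% against 1.67%, Nrp1 in 22.4% against 1.58% and Lrrc32 in 16.5% against 0.363%. After thinning to 1500 UMIs per cell these shares were lower in both groups, at 24.5% and 1.77% for Il2rb and 17.7% and 0.712% for Ikzf2, with the order of the groups kept. The group thus carried the markers of its label, while none of these 5 was caught in more than 46.0% of members.

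The members were not alike in how many markers each cell showed. Of 322 members, 149 (46.3%) held UMIs of at least 2 of the 5 other core markers, against 100 of 6884 Foxp3-negative cells (1.45%), and after thinning the shares were 18.3% and 0.494%. None of the 5 was caught in 112 members (34.8%). The number followed the Foxp3 count: no other core marker was seen in 60% of the 160 cells with 1 Foxp3 UMI, in 18.5% of the 65 with 2 and in 4.12% of the 97 with 3 or more, against 92.3% of cells with 0. Depth differed less between these classes, with a median of 4525, 4408 and 5098 UMIs at 1, 2 and 3 or more Foxp3 UMIs. Foxp3-positive cells with 1 UMI thus lay between the comparison cells and the members with 3 or more, as the plot of markers per cell shows.

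**Figure D2:**
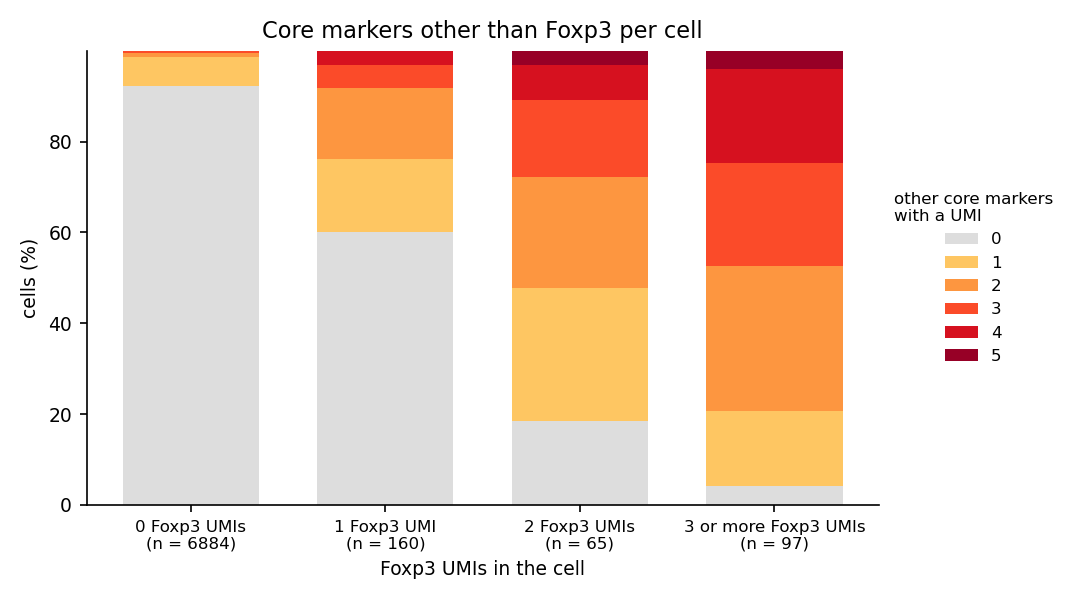
Share of cells (%) by the number of core markers other than Foxp3 (Ikzf2, Ctla4, Il2rb, Lrrc32, Nrp1) with a UMI, for cells of the unstimulated library grouped by their Foxp3 UMIs (number of cells under each bar). The grey part, cells with none of the 5, shrinks from 92.3% at 0 Foxp3 UMIs to 4.12% at 3 or more.

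The levels of single genes followed the same order. Il2ra stood at 5.94 CPM in cells with 0 Foxp3 UMIs and at 49.9, 250 and 387 CPM in cells with 1, 2 and 3 or more. Ctla4 stood at 4.47, 32.0, 78.0 and 163 CPM in the same 4 classes. Tnfrsf4 stood at 13.2, 66.5, 175 and 508 CPM, and Lrrc32 at 1.27, 8.95, 53.1 and 135 CPM. The naïve genes Dapl1 and Tcf7 ran the other way, Dapl1 at 453, 300, 115 and 95 CPM and Tcf7 at 457, 341, 215 and 163 CPM.

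Read from the markers, the Foxp3-positive share climbed with each one. Of 6468 cells with none of the 5 other core markers, 112 held a Foxp3 UMI (1.73%, 1.43 to 2.08%), at a median of 4793 UMIs per cell. With 1 marker the share was 12.5% of 489 cells, with 2 it was 52.2% of 138, with 3 it was 63.1% of 65, with 4 it was 75% of 40, and all 6 cells with 5 markers held Foxp3. Median depth in these classes was 4887, 4881, 4996, 5500 and 5855 UMIs in the same order. Detection of a gene favours deeper cells, and the part of depth in the climb was not tested. A cell type of this library that should lack Foxp3 was not defined apart from these marker counts, so the 1.73% stands as the lowest share measured here, of which free RNA and true expression could be parts that were not told apart. The comparison group holds some cells of like make-up: 113 Foxp3-negative cells carried Ikzf2, and their Il2rb level (147 CPM) was near that of the 204 members without Ikzf2 (139 CPM), while cells with neither gene stood at 11.5 CPM. Il2ra stood at 360 CPM in the 118 cells with both genes, at 97.0 CPM with Foxp3 alone, at 81.8 CPM with Ikzf2 alone and at 4.50 CPM with neither.

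Among the 67 genes past 2-fold higher, the 15 with the highest ratio (T cell receptor segments and unnamed gene models left out) were Il2ra, Ikzf2, Tnfrsf4, Il2rb, Gpr83, S100a6, Izumo1r, Hopx, Tnfrsf9, Pou2f2, Capg, Cish, Nt5e, H2-Q6 and Fos. Il2ra, Ikzf2, Gpr83, Hopx, Tnfrsf9 and Nt5e were at 5.65 to 9.75 CPM in the comparison cells and reached 10 CPM over both groups only through the members, so genes of that level without a difference are not among the 7083. The 15 genes hold receptors of IL-2 and of the TNF family, surface markers, an inhibitor of cytokine signalling (Cish) and the transcriptional regulators Ikzf2, Hopx, Pou2f2 and Fos. H2-Q6, an MHC class I gene, has near-identical relatives that can share its reads. The plot of all measured genes shows them standing off a narrow diagonal.

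**Figure D3:**
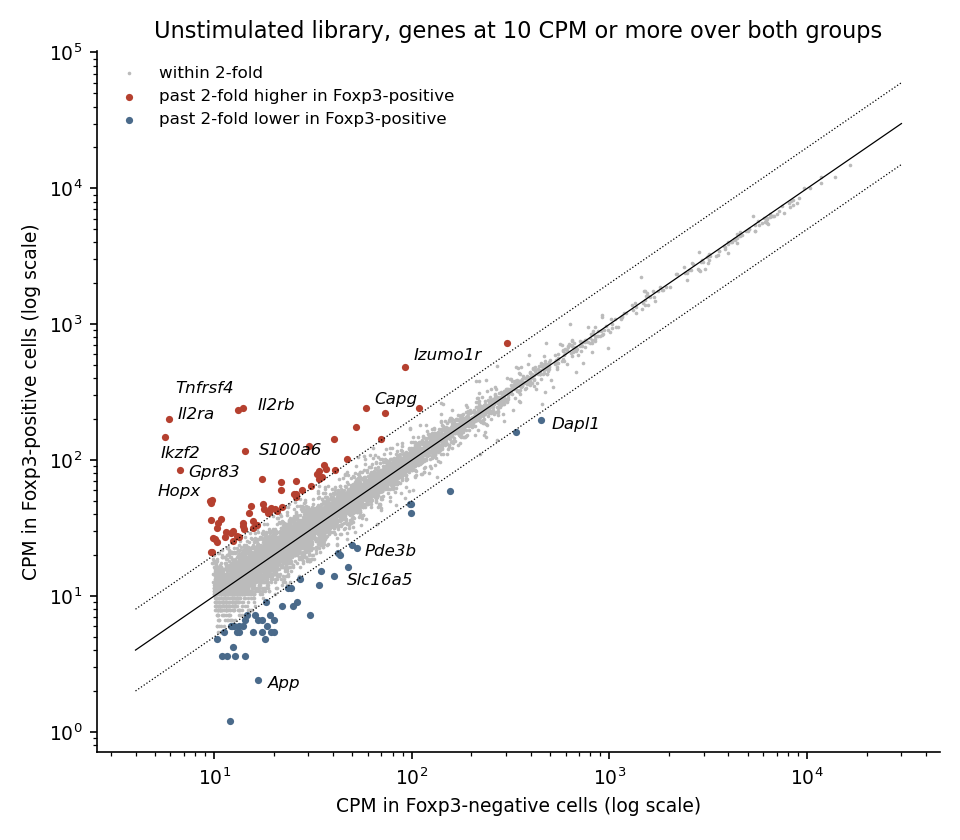
Level of each of 7083 genes in Foxp3-negative (x axis) and Foxp3-positive (y axis) cells of the unstimulated library, as CPM on log axes, with the line of equal level and dotted lines at 2-fold. The 67 genes past 2-fold higher are red, the 51 past 2-fold lower are blue, and Il2ra, Ikzf2, Tnfrsf4 and Il2rb are the named genes farthest above the line.

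The IL-2 receptor pathway was the first group. Of its 15 genes, 12 were measured, 4 of them were past 2-fold higher and none lower, and the list's median log2 ratio was 0.53 over the 14 genes with a ratio. Il2ra, the α chain CD25 that gives the receptor its high affinity, had the highest ratio of all named measured genes, at 201 CPM (180 to 223) in members and 5.94 CPM in the rest (log2 ratio 5.08). It was caught in 37.0% of members and in 1.89% of the other cells, and reached 10 CPM over both groups only through the members. Il2rg, the γ chain shared by many cytokine receptors, was level at 844 and 804 CPM (log2 ratio 0.07), so of the 3 receptor chains the α and β chains differed and the γ chain did not pass 2-fold. The kinases and STAT genes were modestly higher and within 2-fold: Jak3 had a log2 ratio of 0.58, Stat5a of 0.49, Stat5b of 0.46 and Jak1 of 0.18. Among STAT5 target genes that dampen the pathway, Socs2 stood at 35.2 CPM against 1.01 CPM (log2 ratio 5.12, 58 UMIs in 40 members). Cish, another such inhibitor, stood at 72.1 CPM against 17.5 CPM (log2 ratio 2.04, 1.75 to 2.33). Socs1 was just past the line at a log2 ratio of 1.03, which was 0.97 without the member cell with most of its UMIs, and Socs3 was at 0.39. Il7r, the receptor that naïve T cells use for survival, was lower in members at 318 CPM against 472 CPM (log2 ratio -0.57, -0.70 to -0.45). Il2 had no UMI in any of the 322 members, where a floor of 3 counts is 1.82 CPM and the upper end of the exact interval 2.24 CPM, and 17 UMIs (0.490 CPM) in the comparison cells, so no difference in Il2 was detectable at this depth.

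STAT motifs were looked for in the 300-base RefSeq promoter windows, 250 bases before to 50 after each start (GRCm38.p6), on both strands. TTCNNNGAA was found in 8.30% of all 32851 windows, in 11.9% of the 67 windows of 52 genes past 2-fold higher, and in 2.08% of the 48 windows of 30 genes past 2-fold lower. The RUNX motif TGTGGT was in 16.8%, 17.9% and 6.25% of the same windows, and the forkhead motif TGTTTAC in 3.65%, 0% and 4.17%. These shares rest on 8 and 1 windows for the STAT motif, 12 and 3 for RUNX, and 0 and 2 for forkhead, and a match is a description of letters and not a binding site. Besides Foxp3, TTCNNNGAA lay 142 bases before the start of Il7r (log2 ratio -0.57) and 154 bases before that of Socs3 (0.39). The windows of Il2ra, Socs1, Ctla4 and Nrp1, among others, held none. The Cish window is shown for its pair of STAT motifs, in capitals, which begin at the start and 11 bases after it (chr9:107296654-107296683, plus strand).

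Cish: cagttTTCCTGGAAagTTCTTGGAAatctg

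Suppressive molecules were mostly scarce. Of 21 genes, 8 reached 10 CPM over both groups, of which 3 were past 2-fold higher and none lower, with a median log2 ratio of 0.53. The 11 others with a ratio were all past 2-fold higher. Scarce genes pass 2-fold far more often: of all 4598 genes under 10 CPM with a ratio, 1450 (31.5%) were past 2-fold higher and 264 (5.74%) lower. Some of the 11 rested on few counts, such as Gzmb and Itgb8 with 2 member UMIs each and Fgl2 with 5. Entpd1, the ectonucleotidase CD39 that begins the breakdown of extracellular ATP, stood at 14.5 CPM against 0.462 CPM (log2 ratio 4.98, 24 UMIs in 20 members). Nt5e, the enzyme CD73 that completes it to adenosine, stood at 36.4 CPM against 9.61 CPM (log2 ratio 1.92). Nt5e reached 10 CPM over both groups only through the members. Izumo1r, folate receptor 4, a surface marker of regulatory T cells, was caught in 64.6% of members against 22.8% of the rest, at 487 CPM against 92.7 CPM (log2 ratio 2.39). Capg, an actin-capping protein, stood at 241 CPM against 58.4 CPM (log2 ratio 2.05). Tigit, an inhibitory receptor, had a log2 ratio of 3.43 on 21 UMIs in 10 members, and Ebi3, a subunit of IL-35, one of 5.39 on 12 UMIs in 7 members. For Ebi3, 41.7% of these UMIs lay in 1 cell. For Tigit, 28.6% lay in 1 cell, and without the members that held S100a6 the Tigit log2 ratio was 0.80. Others of the list were within 2-fold: the costimulator Icos had a log2 ratio of 0.67, the cytokine Tgfb1 of 0.39, and Lgals1 of 0.05. Il10, the suppressive cytokine, and Il12a, the partner of Ebi3 in IL-35, had no UMI in either group.

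TNF receptor family genes that costimulate T cells differed by member. Tnfrsf4, the receptor OX40, stood at 234 CPM (211 to 259) against 13.2 CPM, a log2 ratio of 4.15. Tnfrsf18, the receptor GITR, stood at 222 CPM against 73.1 CPM, a log2 ratio of 1.60 (1.44 to 1.76). Tnfrsf9, the receptor 4-1BB, stood at 48.5 CPM against 9.61 CPM, a log2 ratio of 2.34, with 18.8% of its UMIs in 1 cell. These were the 3 of 10 measured genes of the list past 2-fold higher, and none was past 2-fold lower. Tnfrsf9 reached 10 CPM over both groups only through the members. Tnfrsf1b, TNF receptor 2, was under 10 CPM over both groups and stood at 25.5 CPM against 8.97 CPM. Cd27 was level at a log2 ratio of 0.08, and Cd40lg, the ligand by which helper cells license B cells, was lower at 75.2 CPM against 134 CPM (log2 ratio -0.83). Tnfrsf4 and Tnfrsf18 are neighbours on chr4 (chr4:156013843-156016612 and chr4:156026164-156028895, both plus strand), 9551 bases apart. Gpr83 and Izumo1r likewise are neighbours on chr9 (chr9:14860210-14870789, plus strand, and chr9:14885814-14903949, minus strand), 15024 bases apart. With Ift80 and Trim59 (30717 bases apart) these were the 3 pairs of the 67 higher genes that lay within 50 kb of each other. Gpr83, a G protein-coupled receptor of regulatory T cells, stood at 84.3 CPM against 6.69 CPM (log2 ratio 3.65, 3.34 to 3.96), in 21.7% of members and 2.72% of the rest.

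Transcription factors other than Foxp3 were mostly level. Of 22 genes, 17 were measured and only Ikzf2 was past 2-fold, with a median log2 ratio of 0.21 over the list. Ikzf2 reached 10 CPM over both groups only through the members. Ikzf4, the Foxp3 partner Eos, was under 10 CPM over both groups and stood at 40.0 CPM against 3.75 CPM (log2 ratio 3.42). Rora, a nuclear receptor, was also scarce at 18.2 CPM against 4.88 CPM (log2 ratio 1.90). Ikzf3 (Aiolos) had a log2 ratio of 0.90, the NF-κB subunit Rel of 0.79, and Runx1 and its partner Cbfb of 0.11 and -0.34. Of factors of naïve T cells, Tcf7 was lower though within 2-fold, at 258 CPM against 457 CPM (log2 ratio -0.83, -0.97 to -0.69). Lef1 was likewise, at 445 CPM against 675 CPM (-0.60). Other factors of the list were nearer level, with Satb1 at -0.36, Foxo1 at -0.01, Foxp1 at 0.04 and Bach2 at 0.15. Id2, an inhibitor of E proteins, had a log2 ratio of -0.74 and its relative Id3 one of 0.43. Outside the list, Pou2f2 (Oct2) had a log2 ratio of 2.06 and Hopx, a homeodomain protein, one of 2.38.

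Genes of naïve and recirculating T cells were lower as a group, yet their members divided. All 14 were measured, and 11 had a log2 ratio below 0, beside 3063 of all 7083 genes measured. The median was -0.49, with 2 past 2-fold lower and none higher. Dapl1 was the farthest, at 196 CPM against 453 CPM (log2 ratio -1.20, -1.37 to -1.05) and in 30.4% of members against 61.2% of the rest. Pde3b, a phosphodiesterase, stood at 23.6 CPM against 49.8 CPM (log2 ratio -1.08), a call that was lost at -0.97 without the members that held S100a6. Ccr7, the lymph node homing receptor, had a log2 ratio of -0.50, Igfbp4 of -0.56 and Klf2, the factor behind lymphoid recirculation, of -0.21. S1pr1, the receptor for exit from lymphoid organs, was level at a log2 ratio of -0.03.

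**Figure D4:**
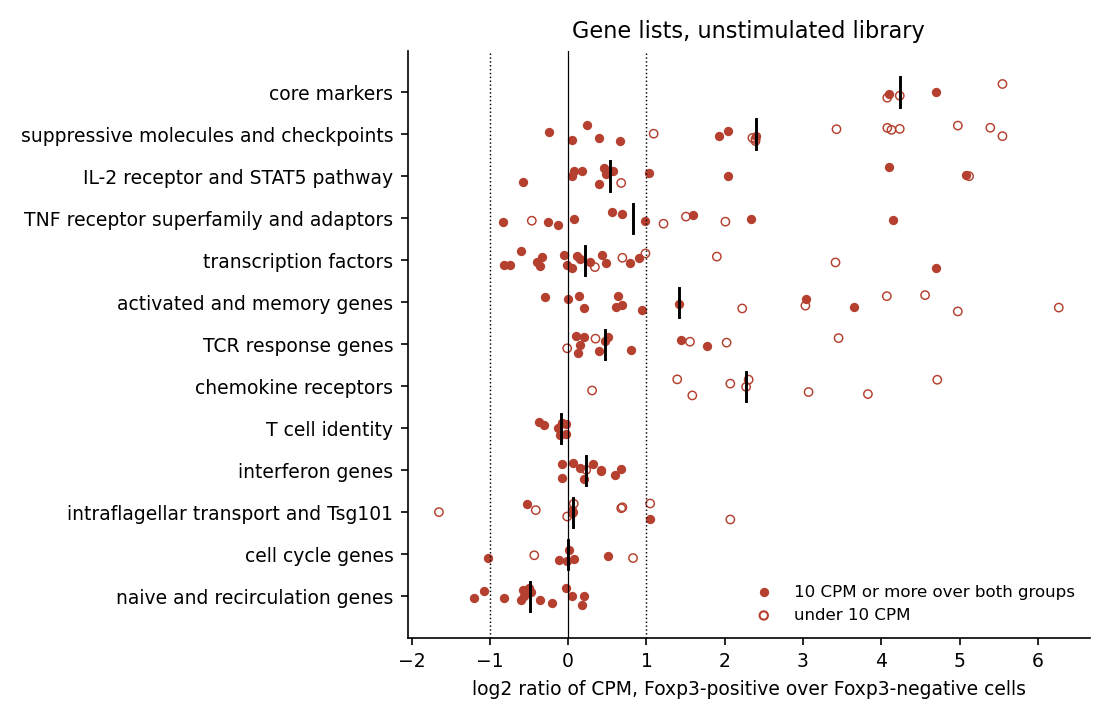
Log2 ratio of CPM, Foxp3-positive over Foxp3-negative cells of the unstimulated library, for each gene of 13 lists with a ratio (filled, at least 10 CPM over both groups together, and open, under 10 CPM), with the median of each list as a black bar and dotted lines at 2-fold. Medians run from 4.24 for the core markers to -0.49 for naïve and recirculation genes.

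The 15 genes with the lowest ratios stood at 11.6 to 47.5 CPM in the comparison cells and at 2.42 to 16.4 CPM in members. App, the amyloid precursor protein, had the lowest ratio of the named genes, at 2.42 CPM (4 UMIs) against 16.6 CPM (log2 ratio -2.78, -4.66 to -1.42). Mctp2, Rgmb (a co-receptor for bone morphogenetic proteins), Rapgef4 (a cAMP-activated exchange factor), Chn2 (a Rac GTPase-activating protein), Atp8b4, Snn, Hid1 and Pxylp1 followed, with log2 ratios from -1.98 to -1.56 and 6 to 14 member UMIs each. Slc16a5 (a monocarboxylate transporter), Nacc2, Apol7e, Myo10, Ggt5 and Nme4 closed the 15, with log2 ratios from -1.54 to -1.41. Apart from App, the upper ends of the intervals of all these 15 genes were between -0.99 (Nacc2, 27 member UMIs) and -0.50 (Pxylp1, 7 member UMIs), within 2-fold. Stmn1, a microtubule regulator of dividing cells, stood at 47.9 CPM against 97.4 CPM (log2 ratio -1.02), and came to -0.89 without the 5% of cells with the most UMIs. Of the 6 measured cell cycle genes the other 5 were within 2-fold, with Pcna at -0.02 and Mcm2 at 0.51. The proliferation marker Mki67 was caught in 4 members, and Ccnb1 and Ccna2, cyclins of dividing cells, in none, so a difference in these was not detectable at this depth.

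Genes listed for activated and memory T cells were unlike in how many members held them. Crip1 was caught in 93.8% of members and S100a10 in 91.6%, both within 2-fold of the rest. S100a6, a calcium-binding protein of memory cells, stood at 117 CPM against 14.2 CPM (log2 ratio 3.04) but was caught in only 34 members (10.6%) and in 3.27% of the rest. S100a4, its relative, had 55 UMIs in 8 members (2.48%) and a log2 ratio of 4.56. These 8 cells were among 31 S100a4-positive cells of the library, 25.8% of them. Klrg1, a receptor of terminally differentiated effector cells, had 22 UMIs in 4 members. Of the 11 measured genes of the list, 3 were past 2-fold higher and none lower: S100a6, the large scaffold protein Ahnak (log2 ratio 1.42) and Gpr83. Gpr83, the receptor of regulatory T cells described above, reached 10 CPM over both groups only through the members. It stood at 102 CPM in members with S100a6 and 81.9 CPM in those without. Cd44 was within 2-fold (log2 ratio 0.64).

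Members with and without S100a6 differed in both directions. The 34 members with S100a6 had a median of 5774.5 UMIs, against 4689 in the 288 without, and detection of a gene favours deeper cells. Some regulatory markers were past 2-fold higher with S100a6. Ctla4 stood at 234 CPM against 64.0 CPM, Ikzf2 at 295 CPM against 127 CPM and Tnfrsf4 at 576 CPM against 188 CPM. Il2rb was within 2-fold at 377 CPM against 223 CPM. Intervals overlapped for Foxp3 (494 against 418 CPM), Il2ra (250 against 194 CPM) and Gpr83 (102 against 81.9 CPM). Icos, a costimulator of effector regulatory cells, stood at 183 CPM against 27.5 CPM, and Cxcr3, a homing receptor for inflamed tissue, at 96.8 CPM against 4.82 CPM. Naïve genes were lower, with Tcf7 at 91.7 CPM against 280 CPM and Igfbp4 at 239 CPM against 728 CPM. Without these 34 cells the median log2 ratio of the core markers against Foxp3-negative cells was 3.99, and 54 in place of 67 genes were past 2-fold higher. The core pattern was thus present outside the S100a6 cells.

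Chemokine receptors were scarce, and none of the 10 reached 10 CPM over both groups. Of the 9 with a ratio, 8 were past 2-fold higher in members, beside the 31.5% of all scarce genes given above. Of these 8, Ccr2, Ccr8, Ccr9 and Cxcr5 rested on 5 to 8 member UMIs each. Ccr4, a receptor for skin and lung homing, had 23 UMIs in 14 members (log2 ratio 3.83), Ccr6 had 15 UMIs in 10 members (4.72) and Cxcr3 had 26 UMIs in 12 members (2.27). Cxcr6 had 14 UMIs, of which 92.9% lay in 1 cell, and its log2 ratio of 2.07 turned to -1.73 without that cell. Without the members that held S100a6, Ccr4 came to -0.51, on too few UMIs to read its sign, and Cxcr3 came to 0.56. These 2 differences thus rested on those cells.

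Immediate-early genes of T cell receptor signalling were partly higher. All 10 measured genes had a log2 ratio above 0, beside 4020 of all 7083 genes measured. Their median was 0.44, and 2 were past 2-fold higher. Nr4a1, a receptor-induced nuclear receptor, stood at 70.3 CPM against 25.8 CPM (log2 ratio 1.45), but 33.6% of its UMIs lay in 1 cell, and its log2 ratio was 0.86 without it. Fos, an AP-1 subunit, stood at 37.0 CPM against 10.8 CPM (1.78), with 23.0% of its UMIs in 1 cell. Cd69 was level at a log2 ratio of 0.11. Of the 10 measured interferon genes none was past 2-fold, and Ifi27l2a was the farthest at 0.67.

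Ift20, the gene deleted in the IFT20-KO mice, did not differ between the groups of the unstimulated library, at 67.3 CPM in members and 65.0 CPM in the rest (log2 ratio 0.05, -0.24 to 0.33). Of 5 measured genes of intraflagellar transport and Tsg101, 1 was past 2-fold higher: Ift80, at 53.3 CPM against 25.9 CPM (log2 ratio 1.04, 0.71 to 1.36), and it was 0.93 as a mean of per-cell fractions. Trim59, its neighbour on the same strand of chr3 (chosen after its value was seen), had a log2 ratio of 1.08. Tsg101 was level at 0.05.

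Markers of T cell identity were level or slightly lower in members, with a log2 ratio of -0.03 for Cd3e, -0.13 for Cd3d and -0.37 for Cd4 and none of 8 past 2-fold. Most of the counts of other cell types' markers came from 1 gene in each list. Of 8 B cell and MHC class II genes, 4 were at 0 UMIs in members, among them the defining Ms4a1, and the summed level was 317 CPM against 303 CPM, nearly all of it Ighm (284 and 287 CPM), the immunoglobulin heavy constant gene, which was caught in 63.0% of members and 67.9% of the rest. Cd74 was higher at 21.2 CPM against 9.72 CPM and Cd79b at 11.5 CPM against 2.08 CPM. For Cd74, 28.6% of the member UMIs lay in 1 cell, and its log2 ratio of 1.13 was within 2-fold under 5 alternatives, from 0.57 without the members that held S100a6 to 0.98 as a mean of per-cell fractions. Of 8 myeloid and dendritic genes, 6 were at 0 in members, and the sum of 102 CPM against 80.5 CPM was nearly all Cst3, caught in 37.6% of members and 31.9% of the rest. Of 10 NK and innate-like genes, 4 were at 0, the sum was 37.0 CPM against 51.1 CPM, and Klrd1, a receptor of NK cells, held most of it. Klrd1 stood at 20 CPM against 43.3 CPM (log2 ratio -1.12), which was -0.82 after thinning and -0.93 without the members that held S100a6. Without Klrd1 the sum was 17.0 CPM in members against 7.73 CPM, and 3 of the 6 genes with a ratio were past 2-fold higher. These were Nkg7, on 13 member UMIs, and Tcrg-C1 and Tcrg-C2, near-identical genes of the γδ receptor, on 6 each. The Nkg7 log2 ratio of 1.16 was 0.81 as a mean of per-cell fractions and 0.64 without its top member cell. It turned to -0.35 without the members that held S100a6. Of the CD8 genes, Cd8a was at 0 and Cd8b1 at 18.8 CPM against 29.4 CPM, and all 6 red cell and platelet genes were at 0 in both groups. The part of Ighm, Cd74, Cd79b, Cst3 and the NK list in the results was not tested. No doublet caller was run. Without the 5% of cells with the most UMIs, 67 genes were again past 2-fold higher and the core median log2 ratio was 4.35. All 6 genes listed for RNA quality and stress were within 2-fold, with a log2 ratio of 0.03 for Malat1 and 0.00 for Hspa8. Hspa1a was at -0.43 and Hspa1b at 0.28, or 0.92 after thinning.

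T cell receptor variable segments were read as a further list. Of 50 measured Trav and Trbv genes, 2 were past 2-fold higher and 6 lower in members, with a median log2 ratio of -0.28. Trav17 had the lowest ratio, on 2 member UMIs (log2 ratio -3.31), and Trav13-1 stood at 7.27 CPM against 30.5 CPM (-2.07). Trbv29 was higher at 78.8 CPM against 33.3 CPM (1.24), in 4.04% of members and 2.57% of the rest. The other higher segment, Trbv12-1 (1.18), was within 2-fold without its top member cell (0.73) and without the members that held S100a6 (0.94). Of the lower ones, Trav10 (-1.09) was within 2-fold under 3 alternatives (-0.97 to -0.84), and Trav17 after thinning (-0.99). Counts of a segment came from few cells, near-identical segments can share reads, and a cell carries many UMIs of its own receptor, so these values rest on few cells.

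The same split by Foxp3 was made in the 2 stimulated libraries, whose cells the choice of members did not use. Foxp3-positive cells were 171 of 9339 (1.83%, 1.57 to 2.12%) in stimulated WT and 318 of 13904 (2.29%, 2.05 to 2.55%) in stimulated IFT20-KO. Median depth was 13688 UMIs in positive and 12604.5 in negative cells of stimulated WT, and 8811 and 4819 UMIs in IFT20-KO, so in the IFT20-KO library the positive cells were the deeper ones. Thinned to 1500 UMIs, the Foxp3-positive shares were 2.05% unstimulated, 0.557% in stimulated WT and 0.877% in stimulated IFT20-KO, and the level over all cells was 19.4, 3.095 and 4.69 CPM. Cells with 1 Foxp3 UMI were 49.7%, 59.6% and 72.0% of the positive cells in the same order. With 1 library each, condition and library cannot be told apart. The libraries shared 98 cell barcodes between unstimulated and stimulated WT, 116 between unstimulated and IFT20-KO and 184 between the 2 stimulated ones, and no shared barcode was Foxp3-positive in both. Without the cells that shared a barcode, the unstimulated share was 4.42%. As a check of the labels, Ift20 stood at 76.2 CPM in Foxp3-negative and 69.7 CPM in Foxp3-positive cells of stimulated WT, and at 6.53 and 9.23 CPM in IFT20-KO.

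The core markers were higher in Foxp3-positive cells of each library, with smaller ratios in the stimulated ones. The difference between libraries was not tested. Their median log2 ratio was 4.24 unstimulated, 1.65 in stimulated WT and 1.10 in stimulated IFT20-KO, with 5, 5 and 3 of the 5 past 2-fold higher. Over all genes measured, 55 of 6672 (0.824%) were past 2-fold higher and 51 (0.764%) lower in stimulated WT, and 22 of 7045 (0.312%) higher and 14 (0.199%) lower in IFT20-KO. Ikzf2 in Foxp3-positive cells stood at 147, 16.3 and 11.97 CPM in the 3 libraries, and in Foxp3-negative cells at 5.65, 0.929 and 1.99 CPM. Its log2 ratio in stimulated WT was 4.13, at a lower level in both groups than in the unstimulated library. Lrrc32 stood at 59.4, 15.4 and 8.55 CPM in positive and 1.27, 0.386 and 0.889 CPM in negative cells, with log2 ratios of 5.55, 5.32 and 3.27.

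For other genes the ratio was smaller and the level in Foxp3-negative cells higher in the stimulated libraries. Il2ra in Foxp3-positive cells stood at 201, 434 and 316 CPM, and in negative cells at 5.94, 179 and 198.5 CPM, with log2 ratios of 5.08, 1.28 and 0.67. Tnfrsf4 stood at 234, 575 and 412 CPM in positive and 13.2, 357 and 322 CPM in negative cells, with log2 ratios of 4.15, 0.69 and 0.36. Izumo1r and Capg had log2 ratios of 0.20 and -0.07 in stimulated WT. Of the feedback inhibitors of IL-2 signalling, Cish had log2 ratios of 2.04, 1.80 and 1.37, and Socs2 of 5.12, 3.04 and 2.04. Il2, at 0 UMIs in unstimulated members, stood at 45.0 CPM in positive against 123 CPM in negative cells of stimulated WT (log2 ratio -1.45, -1.74 to -1.17) and at 75.6 against 68.5 CPM in IFT20-KO (0.14). Of the 15 highest genes, 11 had a log2 ratio above 0 in each stimulated library, with medians of 0.69 and 0.60. The 15 lowest genes had medians of -0.05 and 0.04 there, near the median of all genes (-0.0017 and -0.04). Side by side, the log2 ratios of the 3 libraries are in the plot by library.

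**Figure D5:**
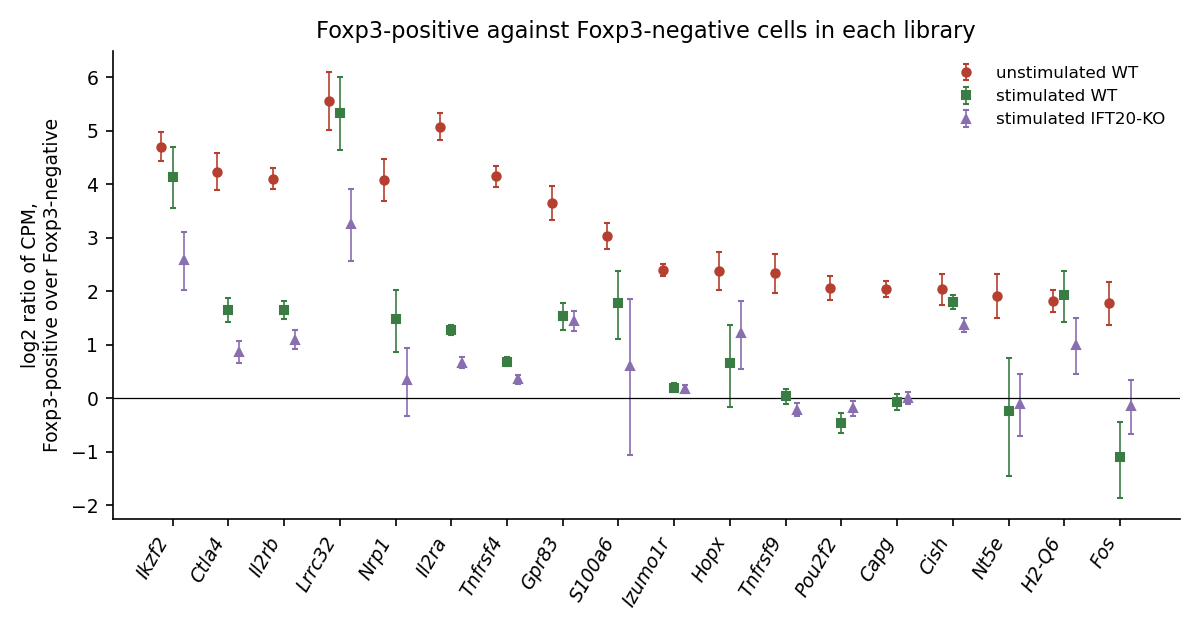
Log2 ratio of CPM, Foxp3-positive over Foxp3-negative cells, for the 5 core markers and other genes of the 15 highest, in the 3 libraries (circles, unstimulated WT; squares, stimulated WT; triangles, IFT20-KO), with exact 95% binomial intervals of the counts. Ikzf2, Lrrc32, Gpr83 and Cish lie above 0 in all 3 libraries, while Izumo1r and Capg lie near 0 after stimulation.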

How the data were processed

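The data were the deposited UMI count matrices of 3 droplet libraries, counts made by the authors with Cell Ranger (version 3.1.0 in the matrix header, mm10 per the submitters' processing notes) and not normalized. The labels give a 5′ kit, the methods a 3′ kit. Sequencing depth per library was 37325332, 117734032 and 106459650 UMIs over 8253, 10320 and 13932 barcodes (unstimulated WT, stimulated WT, stimulated IFT20-KO). No cell annotation was used and no cell was removed as a doublet.

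Summed counts of Foxp3-positive and Foxp3-negative cells were turned into CPM with exact Poisson intervals. Log2 ratios of CPM have exact binomial intervals, and shares of cells have Clopper-Pearson intervals. A group at 0 was set to a floor of 3 counts, and no ratio was given where that floor reached the level of the other group. Cells of 1 library are not replicates, so no p-value was computed. Other thresholds, filters, scalings and cell sets were tried, some chosen after the data were seen. Thinning drew each cell to 1500 UMIs with a fixed seed. The calculation was tested on simulated data with known changes. The simulated cells of a group shared the same gene profile, so the test did not cover an uneven spread of UMIs among cells. Named genes were the core markers, any gene of 20 lists, and the 15 highest and 15 lowest log2 ratios at 10 CPM or more, without Foxp3, receptor segments and unnamed models. Some genes of the lists are not reported here. Members, lists and rules were chosen with earlier results of these data known. Gene positions came from GENCODE M21 (31011 of 31053 gene IDs matched) and promoter windows from RefSeq (GRCm38.p6, 16 of 20 genes looked up). Tools were Python 3.11.15, numpy 2.4.6, scipy 1.17.1, pandas 2.3.3 and matplotlib 3.10.9.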

Additional observations from a re-analysis of the deposited data

Results flagged for a closer look

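Fos and Pdcd1 were past 2-fold higher in Foxp3-positive cells of the unstimulated library and past 2-fold lower in those of stimulated WT. The difference between libraries was not tested. Fos had a log2 ratio of 1.78 unstimulated and -1.10 in stimulated WT, where it rested on 18 UMIs of positive cells. Pdcd1, the inhibitory receptor PD-1, had a log2 ratio of 1.09 unstimulated, on 21 UMIs in 19 members (interval 0.37 to 1.74) and under 10 CPM over both groups, and -1.07 in stimulated WT, at 79.0 CPM in positive and 166 CPM in negative cells. The unstimulated Pdcd1 value was within 2-fold under 4 alternatives, at 0.94 with cells thinned to 1500 UMIs, 0.92 with the comparison cells weighted to the depth of members, 0.95 without the member cell with most of its UMIs and 0.58 without the members that held S100a6.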

How the results depend on the processing

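The Foxp3-positive share of 4.47% was 2.30% with a threshold of 2 Foxp3 UMIs (162 cells, with cells of 1 UMI left out of the total, or 2.25% of all 7206) and 2.05% with cells thinned to 1500 UMIs, and lay between 4.27% and 4.45% under the other 4 alternatives. The count of genes past 2-fold was 67 higher and 51 lower. It was 126 and 185 with 2 or more Foxp3 UMIs, 123 and 237 after thinning (fewer UMIs per gene), 7 and 7 at a minimum of 50 CPM, and 271 and 218 at 2 CPM. Of the 67 higher genes, 65 were still higher with 2 or more Foxp3 UMIs and 52 after thinning. The core median log2 ratio of 4.24 was 4.88 with 2 or more Foxp3 UMIs and between 3.99 and 4.35 under the other alternatives. Chosen after seeing the data were leaving out, for each gene, the member cell with most of its UMIs (56 higher, 90 lower), the members that held S100a6, and cells that shared a barcode with another library. Cxcr6 turned to a log2 ratio of -1.73 without its top cell and to -1.55 without the S100a6 members, which also turned Ccr4 to -0.51 and Nkg7 to -0.35. For Cxcr6 and Ccr4 too few member UMIs were then left to read the sign. Of 72 named genes past 2-fold, 67 to 72 stayed past it under the 8 other alternatives, 65 without the top member cell of each gene and 72 without shared barcodes. Without the S100a6 members, 57 of 69 stayed past it. Calls on few UMIs are limited by depth, and 1 library per condition gives no replicate error. No paired analysis was possible because each condition was 1 library.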
